A study of Homo sapiens with 10 samples.

Results

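The progesterone receptor (PR) mutant K388R and wild-type PR were compared in T47D breast cancer cells before a full hormone response, to describe how far the iKR and iWT lines already differed. iKR was set against iWT in the 3 matched conditions in which the PR agonist R5020 and the inducer AP21967 were not both present. These conditions gave 3 arrays for each line, 6 of the 10 arrays of the inducible experiment. The AP21967 plus R5020 pair of arrays was kept out of the comparison and read afterwards, and the 2 arrays of the iEV line gave the level in cells without PR.

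All lines were made in T47D-Y, a PR-null derivative of the luminal T47D line, and each was clonal. iEV carried the inducible vector with no receptor (genotype PR null), iWT carried wild type PR and iKR carried mutant K388R PR. AP21967, a dimerizer that switches on the vector, or its ethanol vehicle was given for 2 days with serum starvation, and R5020 or ethanol for 6 h before RNA was taken. The 3 matched pairs are called the vehicle pair (ethanol for both agents), the R5020 pair (R5020 without AP21967) and the AP21967 pair (AP21967 without R5020). Each line was 1 clone and each condition 1 array, so the receptor and the clone cannot be told apart, and p-values measure only the spread of the line difference over 3 conditions of the same clones.

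PR is a steroid receptor transcription factor that binds progestins, enters chromatin at hormone response elements and recruits coregulators. Attachment of the small protein SUMO to the lysine K388 in its N-terminal region dampens its activity at many target genes. An arginine at that position, as in K388R, cannot take the modification, so the mutant is used as a SUMO-deficient receptor.

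The receptor transcript did not separate the lines. On the log2 scale, PGR, which encodes PR, was at 11.12, 11.77 and 11.34 in iWT (vehicle, R5020 and AP21967 conditions) and at 10.65, 11.43 and 12.08 in iKR. The iKR arrays lay on both sides of the iWT arrays, and the mean difference was -0.02 (SE 0.20, 3 pairs, adjusted p = 0.962 by limma). In iEV, PGR was at 6.25 and 6.17, below every array of the receptor lines. The PGR signal was thus high in iWT and iKR also in the arrays without AP21967.

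Both lines had high levels of the keratins of luminal breast epithelium. KRT8 and KRT18, the keratins of simple epithelia, were the highest of the list, above 14.5 in all 6 arrays, and differed by -0.01 and -0.01 (log2, adjusted p = 0.895 and 0.948). EPCAM, an epithelial adhesion molecule, differed by -0.01 (adjusted p = 0.911). Of the 19 luminal markers tested, 5 were lower in iKR and 0 higher, and these are described further on. Of the markers of other cells, 3 of 18 basal and myoepithelial genes were higher and 0 lower, and 1 of 9 mesenchymal genes was higher and 1 lower. Of the fibroblast, immune and endothelial genes tested, 0 of 8, 0 of 9 and 0 of 6 were called in either direction. These counts are to be read against 6.7% higher and 5.07% lower over all genes, since the lists are short. The median differences of the fibroblast, immune and endothelial genes were 0.03, -0.01 and -0.01, and T cell CD3E and endothelial VWF, for example, differed by -0.03 and -0.01.

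Of 10911 genes tested, 731 were higher and 553 lower in iKR (limma with the condition as a block, Benjamini-Hochberg adjusted p under 0.05), which is 6.7% and 5.07% of the genes. Without the R5020 pair 439 were higher and 331 lower, and without the AP21967 pair 499 were higher and 315 lower. Most differences were small. The median difference of the called genes was 0.28 among those higher and -0.25 among those lower (log2), and 53 and 37 of them passed 1.5 fold. Past 2 fold, 8 genes were higher and 8 lower, 0.0733% of the genes in each direction. The 3 arrays of one line lay wholly above or below those of the other in 675 of the 731 and 511 of the 553 genes, against 27.8% of all genes tested. Over all genes, the line difference of the vehicle pair correlated with that of the R5020 pair at r = 0.63 (Spearman 0.42) and with that of the AP21967 pair at 0.68 (0.47), and the R5020 and AP21967 pairs correlated at 0.70 (0.53). These values are across genes, which are not independent replicates.

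The largest difference was in CDH10, a type II classical cadherin best known from the nervous system. CDH10 was at 12.42, 12.30 and 12.35 in iWT and at 6.74, 6.65 and 6.28 in iKR, and its iEV level lay between them at 8.96 and 8.87. The lines did not come near each other, and the mean difference was -5.80 (SE 0.08, adjusted p = 9.59e-09 by limma), or 55.9 fold. The iKR values lay near the floor of the scale, so this fold is approximate. In the AP21967 plus R5020 pair it was 11.64 in iWT and 6.72 in iKR.

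AZGP1, KYNU and CD36 had iKR below both other lines by over 2 fold. AZGP1, a secreted zinc-binding glycoprotein made by luminal breast cells, was at 9.64, 9.72 and 9.59 in iWT and at 7.14, 7.02 and 6.95 in iKR. iEV had still more, 12.34 and 12.64, so that the lines lay in the order iEV, iWT, iKR with no overlap. The difference of iKR and iWT was -2.61 (SE 0.05, adjusted p = 1.17e-07). KYNU, kynureninase of the tryptophan breakdown pathway, was at 10.74, 10.61 and 10.68 in iWT and at 8.72, 8.82 and 8.65 in iKR, with iEV at 11.77 in both arrays. It differed by -1.95 (SE 0.06, adjusted p = 1.64e-06), and its other probe sets gave -1.29, -2.27 and -0.86. CD36, a fatty acid transporter and scavenger receptor, was at 10.12, 10.08 and 9.93 in iWT and at 8.64, 8.62 and 8.18 in iKR, and iEV (10.17 and 10.13) was just above iWT. CD36 differed by -1.56 (SE 0.06, adjusted p = 1.34e-05). Of its other probe sets, one gave -1.45 and another, near the floor of the scale with a mean of 6.39, gave -0.09.

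The other genes among the 15 most reduced in iKR were OAZ3, MX1, RND1, CLDN8, HOPX, DUSP6, GNL3L, IFI6, ESR1, GATC and ANXA6, with differences from -1.33 to -0.75. CLDN8, a tight junction claudin, stood out by its iEV level. It was at 11.37 and 11.49 in iEV, at 7.66, 8.01 and 7.64 in iWT and at 6.74, 6.89 and 6.69 in iKR. Both receptor lines were thus closer to each other than to iEV, and iKR differed from iWT by -1.001 (adjusted p = 5.34e-05). HOPX, a homeodomain cofactor, differed by -0.92.

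Among the genes higher in iKR, the cytochrome P450 gene CYP1A1 was first. CYP1A1 oxidises polycyclic hydrocarbons and estrogens. It was at 9.83, 9.86 and 9.95 in iWT and at 11.33, 11.33 and 11.76 in iKR, while iEV (9.35 and 9.38) was below both. The mean difference was 1.59 (SE 0.07, adjusted p = 1.46e-05), or 3.01 fold, and the pair not used in the fit gave 1.18. KRT23, an acidic keratin of simple epithelia, was at 7.85, 7.87 and 8.02 in iWT and 9.04, 9.13 and 9.24 in iKR (1.22, SE 0.05, adjusted p = 7.51e-06). The bladder differentiation gene UPK3B differed by 1.17 (adjusted p = 3.29e-05) and TNNC1, troponin C of slow muscle, by 1.01 (adjusted p = 7.22e-05). In all of KRT23, UPK3B and TNNC1, iEV was below both lines.

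Secreted signals were among the 15 genes most raised in iKR. WNT5A, a noncanonical Wnt ligand, was at 7.24, 6.85 and 7.16 in iWT and at 8.13, 8.11 and 8.49 in iKR, with iEV at 7.60 and 7.19, between them. Its mean difference was 1.16 (SE 0.08, adjusted p = 0.000136), and a second probe set near the floor gave 0.64. BMP7, a bone morphogenetic protein, was at 8.34, 8.38 and 8.42 in iWT and at 9.56, 9.46 and 9.59 in iKR (1.15, SE 0.05, adjusted p = 1.36e-05). Its other probe sets gave 0.65, 0.64 and -0.07, the last being the one kept when probe sets marked _x_at or _s_at (which can match several transcripts) are left out. ADM, the vasodilator peptide adrenomedullin, differed by 0.92 (adjusted p = 0.000451). KCNV1, a modifier subunit of potassium channels, differed by 1.35 (SE 0.10, adjusted p = 0.000188), and here iEV (8.42 and 8.23) was above both lines. Another KCNV1 probe set, with a mean of 6.85, gave only 0.05. Over the 30 genes with the largest differences, 11 had further probe sets. Of these probe sets, 22 of the 25 with a mean of log2 6 or more had the sign of the main one, at any size.

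**Figure D1:**
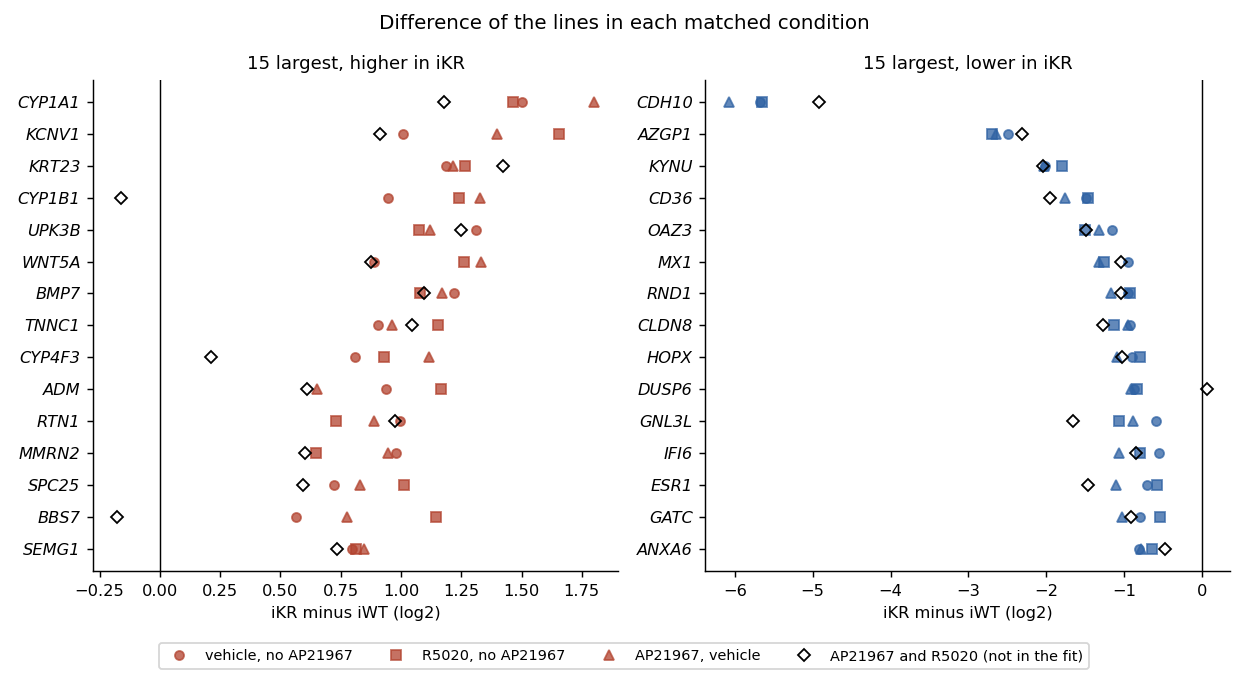
Each row is 1 of the 15 genes with the largest difference in each direction, and the x axis is iKR minus iWT on the log2 scale. Filled circles, squares and triangles are the vehicle, R5020 and AP21967 pairs, 1 array a line each, and open diamonds are the AP21967 plus R5020 pair, which was not in the fit. The 3 filled symbols of every gene lie on one side of 0, and the diamonds of CYP1B1, BBS7 and DUSP6 lie on the other side.

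Cell cycle genes were higher in iKR throughout the mitosis list. Dividing cells switch on a shared group of genes for spindle assembly, chromosome condensation and cytokinesis, and a second group for copying DNA. All 33 mitosis genes tested were higher in iKR (100% against 6.7% of all genes). Their differences ran from 0.25 to 0.81 with a median of 0.56, against -0.01 over all genes. Each of the 33 had its 3 iKR arrays wholly above its 3 iWT arrays, while the arrays of the lines did not overlap in 27.8% of all genes. HMMR, a spindle-associated hyaluronan receptor, was at 9.53, 9.58 and 9.91 in iWT and at 10.25, 10.33 and 10.64 in iKR, a difference of 0.73 (SE 0.04, adjusted p = 8.63e-05). ASPM, a spindle pole protein, was at 8.58, 8.72 and 8.75 in iWT and at 9.49, 9.40 and 9.59 in iKR (0.81, SE 0.06, adjusted p = 0.000134). CCNA2 (cyclin A2) differed by 0.69 (adjusted p = 0.000115), DLGAP5, a spindle protein, by 0.73 (adjusted p = 8.96e-05) and MKI67, the Ki-67 antigen, by 0.46 (adjusted p = 0.00112). SPC25, a kinetochore protein outside the list, was among the 15 most raised genes at 0.85.

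iKR nonetheless did not have the highest mitosis level. The list's median level, taken after subtracting each gene's mean over the 10 arrays, was -0.46, -0.41 and -0.25 in iWT, 0.13, 0.15 and 0.28 in iKR and 0.39 and 0.51 in iEV. The iEV mean was above both receptor lines in 28 of the 33 genes and between them in 5. iWT was thus the line that stood lowest, and its 3 arrays were below every array of the other lines. The median difference of iKR from iEV was -0.22 and that of iWT from iEV -0.82, values that share the iEV arrays. These were bulk cultures, in which fewer cells of a kind and less RNA per cell cannot be told apart.

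DNA replication genes followed the same order with smaller differences. Of 30 tested, 18 were higher and 0 lower in iKR (60% against 6.7% of all genes), with a median of 0.19. TYMS, thymidylate synthase, was at 11.14, 11.08 and 11.33 in iWT and at 11.68, 11.70 and 11.81 in iKR (0.55, adjusted p = 0.000358). The ribonucleotide reductase subunit RRM2 differed by 0.47 (adjusted p = 0.000819), the initiation factor MCM10 by 0.50 (adjusted p = 0.000587) and CCNE2 (cyclin E2) by 0.60 (adjusted p = 0.00209). Of the MCM helicase subunits MCM2 to MCM7, MCM6 was called (0.20, adjusted p = 0.0338) and the others had differences from -0.07 to 0.16. The number of replication genes called fell to 10 without pairing by condition and to 11 without the R5020 pair or without the AP21967 pair.

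**Figure D2:**
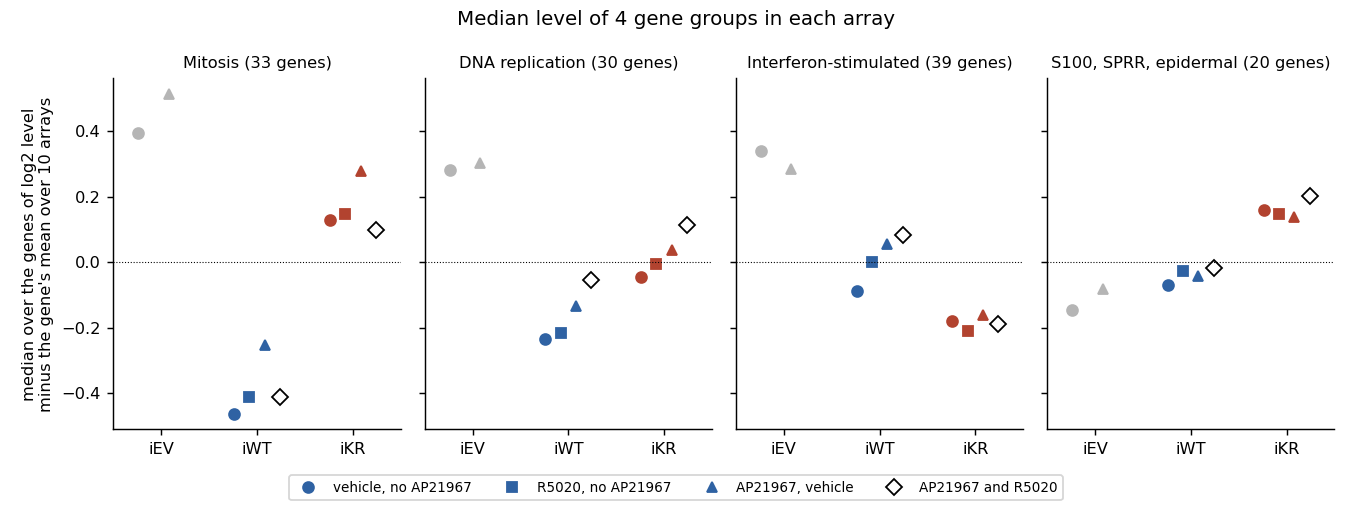
For 4 gene groups, each symbol is 1 array, and the y axis is the median over the group's genes of the log2 level minus the gene's mean over the 10 arrays. Lines are on the x axis, filled symbols are the arrays used here and the iEV arrays, and open diamonds are the AP21967 plus R5020 arrays. Mitosis genes lie from -0.46 to -0.25 in iWT and from 0.13 to 0.28 in iKR, and interferon-stimulated genes lie lowest in iKR.

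The start regions of the mitosis genes were searched for short motifs. In promoters of mitosis genes, a CCAAT box and the letters TTTGAA, the core of the cell cycle homology region, are known elements. TTTGAA was present on either strand in 19 of the 28 mitosis genes with a RefSeq promoter (250 bases before to 50 after the start, GRCh38.p14), or 67.9%, against 15.4% of all 27305 promoters. CCAAT was present in 25 of the 28, or 89.3%, against 35.7%. All 28 were called, so these shares describe the list and cannot set called members against others. HMMR and CDC20 are printed as examples in which both motifs occur, with each match to either motif, on either strand, in capitals.
HMMR (chr5:163460382-163460681, + strand): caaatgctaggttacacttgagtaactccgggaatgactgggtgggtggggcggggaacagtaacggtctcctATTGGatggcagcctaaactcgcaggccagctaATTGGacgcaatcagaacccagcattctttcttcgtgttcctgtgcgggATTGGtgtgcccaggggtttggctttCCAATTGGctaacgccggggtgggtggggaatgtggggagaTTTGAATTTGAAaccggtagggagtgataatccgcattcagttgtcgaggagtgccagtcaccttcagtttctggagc
CDC20 (chr1:43358731-43359030, + strand): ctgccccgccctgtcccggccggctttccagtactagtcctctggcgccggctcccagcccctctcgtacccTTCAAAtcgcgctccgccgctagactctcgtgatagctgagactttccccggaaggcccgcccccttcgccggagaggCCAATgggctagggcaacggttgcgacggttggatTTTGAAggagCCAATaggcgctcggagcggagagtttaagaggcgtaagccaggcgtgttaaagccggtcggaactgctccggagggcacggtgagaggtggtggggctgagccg
HMMR holds 2 adjoining TTTGAA and 5 CCAAT matches, 2 of which overlap, and CDC20 holds 2 of each. CDC20, an activator of the anaphase-promoting complex, was higher in iKR by 0.67 (adjusted p = 0.000124). A match is a run of letters and was not tested as a binding site.

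Many interferon-stimulated genes were lower in iKR. These genes encode antiviral proteins, are switched on through the factor ISGF3 and include its subunit IRF9 and the amplifier IRF7. Of 39 tested, 16 were lower and 2 higher (41% lower against 5.07% of all genes), with a median of -0.16. MX1, an antiviral GTPase, was at 9.33, 9.87 and 9.97 in iWT and at 8.38, 8.62 and 8.65 in iKR, a difference of -1.17 (SE 0.07, adjusted p = 8.63e-05). IFI6 differed by -0.80 (SE 0.09, adjusted p = 0.00089), IFIT1, which binds viral RNA, by -0.68 (SE 0.06, adjusted p = 0.000301) and the ubiquitin-like ISG15 by -0.67 (SE 0.06, adjusted p = 0.00041). IRF9 and IRF7 differed by -0.39 and -0.32 (adjusted p = 0.0127 and 0.00649), and the RNA sensors RIGI and IFIH1 by -0.25 and -0.24 (adjusted p = 0.0146 and 0.0166). The 2 called higher were PSMB8, a subunit of the immunoproteasome (0.30, adjusted p = 0.00392), and GBP1, a GTPase (0.21, adjusted p = 0.0346). Several members of the list were not called, for example OAS2 (-0.12), IFIT3 (-0.11) and IFI44L (0.04).

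As with mitosis, iEV held the extreme. Interferon list medians were 0.34 and 0.28 in iEV, -0.09, 0.00 and 0.06 in iWT and -0.18, -0.21 and -0.16 in iKR. iEV was above both receptor lines in 31 of the 39 genes. For MX1 the iEV arrays were at 10.88 and 10.85, above all arrays of iWT and iKR. Of 19 antigen presentation genes tested, 1 was higher and 0 lower (5.26% and 0% against 6.7% and 5.07% of all genes), which is near those shares. The 1 called was B2M, the light chain of class I molecules (0.26, adjusted p = 0.00805).

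The core of the interferon-stimulated response element, GAAANNGAAA, was present on either strand in 19 of the 31 listed genes with a promoter, or 61.3%, against 3.65% of all promoters. It was present in 11 of the 16 among them that have a promoter here and were called in either direction. These include GBP1, which was higher in iKR. Members that were not called, such as IFIT3 and IFI44L, also held it, so the shares describe the list and not the difference of the lines. MX1, IFIT1 and ISG15, among the most reduced members, are printed with the matches in capitals.
MX1 (chr21:41420308-41420607, + strand): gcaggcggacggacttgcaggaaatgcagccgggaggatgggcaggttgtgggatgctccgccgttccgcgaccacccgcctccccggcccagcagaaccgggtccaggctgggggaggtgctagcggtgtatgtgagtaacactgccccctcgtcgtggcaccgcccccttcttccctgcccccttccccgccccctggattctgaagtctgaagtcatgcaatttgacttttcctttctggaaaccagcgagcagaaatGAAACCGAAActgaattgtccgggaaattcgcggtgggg
IFIT1 (chr10:89392373-89392672, + strand): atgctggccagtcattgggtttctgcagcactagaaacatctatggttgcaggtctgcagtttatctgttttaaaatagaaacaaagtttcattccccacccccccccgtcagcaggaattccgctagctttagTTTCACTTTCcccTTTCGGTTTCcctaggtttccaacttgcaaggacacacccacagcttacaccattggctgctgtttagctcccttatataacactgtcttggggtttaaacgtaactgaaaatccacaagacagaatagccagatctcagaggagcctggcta
ISG15 (chr1:1013247-1013546, + strand): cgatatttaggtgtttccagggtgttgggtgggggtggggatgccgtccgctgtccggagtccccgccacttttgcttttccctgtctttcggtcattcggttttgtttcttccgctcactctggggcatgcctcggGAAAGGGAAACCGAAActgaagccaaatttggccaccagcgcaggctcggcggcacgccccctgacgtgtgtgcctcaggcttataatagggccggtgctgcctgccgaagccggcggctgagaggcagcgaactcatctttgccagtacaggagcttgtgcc
MX1 holds 1 match, and IFIT1 and ISG15 hold 2 each, overlapping in ISG15. The genes without a match in this window were not searched elsewhere.

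**Figure D3:**
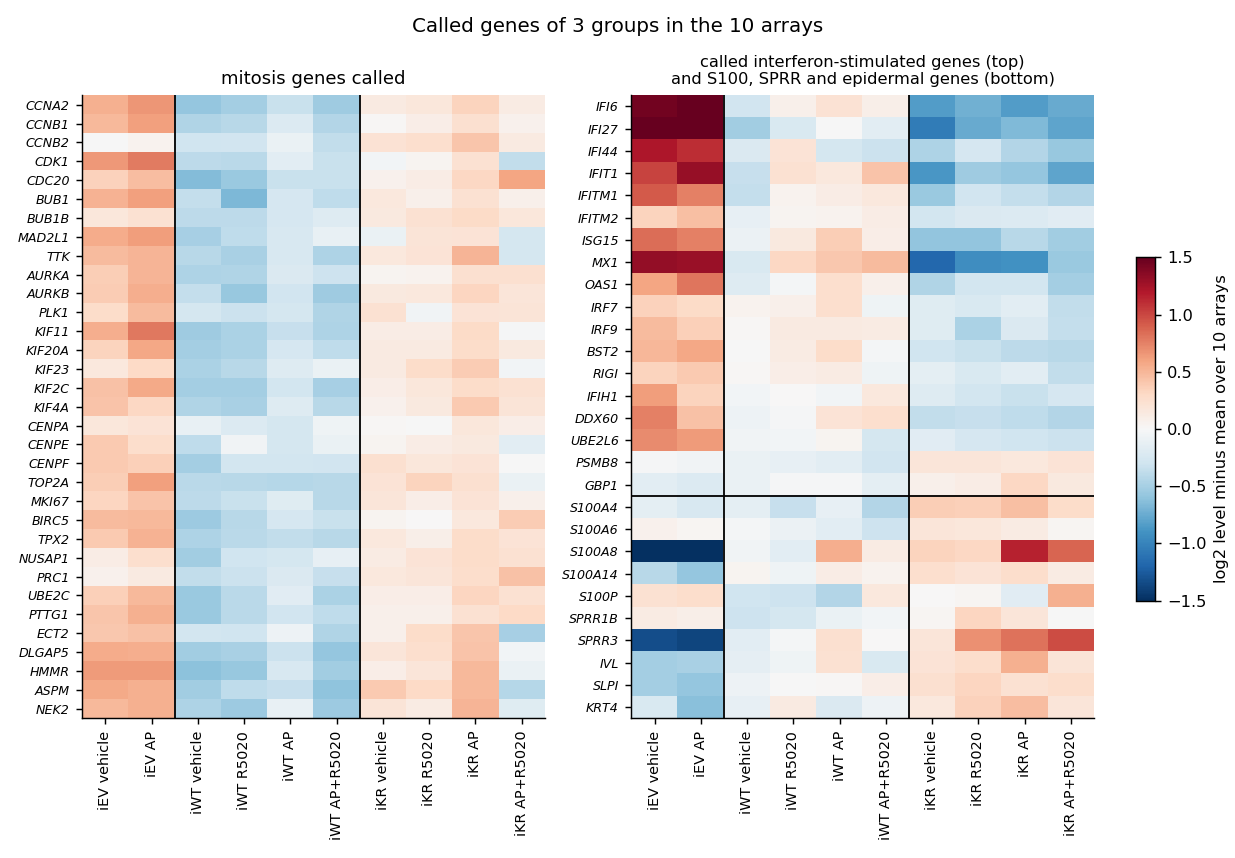
Rows are the called genes of 3 groups and columns the 10 arrays by line and condition, where AP is AP21967. Colour is the log2 level minus the gene's mean over the 10 arrays, cut at 1.5 in either direction. Mitosis genes are low in the iWT columns, the 16 interferon-stimulated genes called lower have lower means in iKR than in iWT, PSMB8 and GBP1 have higher ones, and S100A8 and SPRR3 are lowest in iEV.

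Several genes of stratified epithelium and of the S100 family were also higher in iKR. Of 20 tested, 10 were higher and 0 lower (50% against 6.7%), with a median of 0.16. The arrays of the lines did not overlap in 7 of the 20, against 27.8% of all genes. Of 5 other probe sets of these genes, 4 had positive differences, with a median over the 5 of 0.02. The iEV mean was below both lines in 12 genes, between them in 5 and above both in 3, S100P among the last. S100A4, a calcium-binding protein linked to motility, was at 9.17, 8.97 and 9.19 in iWT and at 9.69, 9.67 and 9.76 in iKR (0.60, SE 0.05, adjusted p = 0.000301), and iEV was at 9.17 and 9.08. SPRR3, a cornified envelope precursor, was at 11.45, 11.58 and 11.85 in iWT and at 11.79, 12.30 and 12.42 in iKR. Its arrays overlapped across conditions, but iKR was higher in each of the 3 pairs (0.54, SE 0.07, adjusted p = 0.00205). S100A8, a subunit of calprotectin, behaved likewise at 11.14, 11.04 and 11.73 in iWT and 11.53, 11.50 and 12.35 in iKR (0.49, adjusted p = 0.000987), and iEV was at 9.63 and 9.64. IVL (involucrin) differed by 0.32 (adjusted p = 0.00302). The basal keratin KRT15 differed by 0.44 (adjusted p = 0.00194). It was 1 of 3 called of the 18 basal and myoepithelial markers tested (16.7% against 6.7% of all genes). The number of S100 and epidermal genes called fell to 6 without pairing by condition.

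Several luminal markers were lower in iKR. Of 19 tested, 5 were lower and 0 higher (26.3% lower against 5.07% of all genes), with a median of -0.08. ESR1, the estrogen receptor gene, was at 10.80, 10.76 and 10.75 in iWT and at 10.10, 10.19 and 9.65 in iKR (-0.79, SE 0.09, adjusted p = 0.00112), and iEV (10.70 in both arrays) was close to iWT. Of 8 other ESR1 probe sets, those with negative values ran from -0.34 to -0.06 and those with positive values were 0.02 and 0.07. SPDEF, an ETS factor of luminal cells, differed by -0.33 (adjusted p = 0.00969), the receptor kinase ERBB3 by -0.28 (adjusted p = 0.00879), TFAP2A by -0.25 (adjusted p = 0.0109) and GATA3 by -0.23 (adjusted p = 0.0166). FOXA1, the pioneer factor, had a difference of -0.12 and was not called (adjusted p = 0.161).

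Known targets of the estrogen receptor did not share one direction. Of 22 tested, 4 were higher and 2 lower (18.2% and 9.09% against 6.7% and 5.07% of all genes), with a median of 0.01. The trefoil peptide TFF3 (0.38, adjusted p = 0.00549) and the secreted disulfide isomerase AGR2 (0.35, adjusted p = 0.00194) were higher, and the carbonic anhydrase CA12 was lower (-0.67, adjusted p = 0.000143). TFF1 had a difference of 0.08 and was not called (adjusted p = 0.376).

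The aryl hydrocarbon receptor and its targets were looked at together after the values of CYP1A1 were seen. AHR binds dioxin-like compounds and tryptophan products and switches on the CYP1 enzymes. AHR was at 8.88, 8.86 and 9.29 in iWT and at 9.43, 9.49 and 9.77 in iKR (0.56, SE 0.05, adjusted p = 0.000344). CYP1B1 was at 10.60, 10.36 and 10.41 in iWT and at 11.54, 11.60 and 11.74 in iKR (1.17, SE 0.07, adjusted p = 8.96e-05). CYP1A2 (0.63, adjusted p = 0.00039), the ADP-ribosyltransferase TIPARP (0.38, adjusted p = 0.00277) and the quinone reductase NQO1 (0.32, adjusted p = 0.00298) were also higher. Not all of these differences were present in the AP21967 plus R5020 pair. There AHR differed by -0.08, CYP1B1 by -0.16 and CYP1A2 by 0.11, while CYP1A1 differed by 1.18, TIPARP by 0.42 and NQO1 by 0.23. iEV did not take one place among these genes. It was below both lines for CYP1A1 and CYP1A2, between them for AHR and TIPARP, and above both for CYP1B1 and NQO1. In the wider list of 32 steroid and xenobiotic metabolism genes, 6 were higher and 4 lower (18.8% and 12.5% against 6.7% and 5.07%). They included the estrogen-forming enzymes STS (0.58, adjusted p = 0.00145) and HSD17B1 (0.41, adjusted p = 0.00109), both higher, and the glutathione transferase GSTM3 (-0.51, adjusted p = 0.00106), lower.

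Growth factor genes did not share one direction. Of 35 ERBB and growth factor signaling genes, 7 were higher and 6 lower (20% and 17.1% against 6.7% and 5.07% of all genes), with a median of -0.01. DUSP6, the phosphatase that removes activating phosphates from ERK, was at 8.97, 8.84 and 9.32 in iWT and at 8.10, 8.005 and 8.41 in iKR (-0.87, SE 0.04, adjusted p = 4.47e-05). The related phosphatase DUSP5 differed by -0.73 (adjusted p = 0.000124), but DUSP4 was higher (0.33, adjusted p = 0.00256). SPRY2 and SPRY4, further inhibitors of the pathway, had differences of -0.08 and 0.06 and were not called (adjusted p = 0.489 and 0.397). The insulin receptor substrate IRS2 was higher by 0.51 (adjusted p = 0.00516). IRS1, which the study named from its earlier work on PR SUMOylation, was higher by 0.30 (adjusted p = 0.0212).

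Among amino acid supply genes, more were higher than lower. Of 25 genes of amino acid synthesis and endoplasmic reticulum stress, 8 were higher and 2 lower (32% higher against 6.7%), with a median of 0.11. The lipoprotein receptor VLDLR (0.69, adjusted p = 0.000138), the leucine transporter SLC7A5 (0.46, adjusted p = 0.000587), SHMT2 (0.33, adjusted p = 0.0029) and PHGDH (0.29, adjusted p = 0.00641), enzymes of serine and glycine metabolism, were among them. The stress factors ATF4, DDIT3 and ATF3 had differences of 0.12, 0.10 and 0.02 and were not called (adjusted p = 0.132, 0.285 and 0.876).

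The other groups held from 0 to 5 calls in each direction, to be read against 6.7% higher and 5.07% lower over all genes. In cholesterol and fatty acid synthesis, 1 was higher and 4 lower of 21 (4.76% and 19.05%), led by HMGCS1 (-0.65, adjusted p = 0.034), which had a difference of 0.03 when probe sets marked _x_at or _s_at were left out. Of 30 apoptosis regulators, TNFSF10, the death ligand TRAIL, was higher (0.65, adjusted p = 0.000271) and 4 were lower (3.33% and 13.3%), among them BAX (-0.44, adjusted p = 0.00229) and BIK (-0.28, adjusted p = 0.00692). Of 37 adhesion genes, 5 were higher and 5 lower, 13.5% each. Beside CDH10 they included ALCAM (-0.61, adjusted p = 0.000215) and L1CAM (0.64, adjusted p = 0.000134), both immunoglobulin-type adhesion molecules. Of 14 genes of the SUMO machinery, 0 were higher and 1 was lower, the SUMO-targeted ubiquitin ligase RNF4 (-0.18, adjusted p = 0.0357). Of 18 steroid receptors and coregulators, 2 were higher, namely the acetyltransferases KAT2B (0.47, adjusted p = 0.00256) and CREBBP (0.31, adjusted p = 0.0114), and the arginine methyltransferase CARM1 was lower besides ESR1 (-0.47, adjusted p = 0.000966). Another CREBBP probe set, with a mean of 6.79, gave -0.05. Hypoxia genes (2 higher and 3 lower of 25), HOX genes (2 and 3 of 20), NRF2 targets (3 and 1 of 19), imprinted genes (0 and 3 of 19, or 15.8% lower), cancer-testis antigens (2 and 2 of 14), mesenchymal markers (1 and 1 of 9) and metallothioneins with zinc transporters (2 and 0 of 12) completed the lists. Of the 3 genes whose protein domains are used in the inducible system, 0 were called, with FKBP1A at -0.14 and MTOR at 0.04.

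Progestin and glucocorticoid response genes did not share one direction. Of 25 tested, 21 were not called, 12% were higher and 4% lower (against 6.7% and 5.07% of all genes). The 3 called higher were TIPARP, S100P at 0.30 and KLF4 at 0.21 (adjusted p = 0.00277, 0.00409 and 0.0441), and the 1 called lower was the kinase SGK1 at -0.41 (adjusted p = 0.00302). The steroid-induced cochaperone FKBP5 had a difference of -0.13 and was not called (adjusted p = 0.256). Read next were 8 genes that the study followed up or, for IRS1, HBEGF and STC1, named from its earlier work. IRS1 was called, as given above. MSX2 (-0.10), RGS2 (0.10), MAP1A (0.04), PDK4 (-0.11), BCL2L11 (0.00), HBEGF (0.09) and STC1 (-0.08) were not called, with adjusted p from 0.172 to 0.983. Their other probe sets were not tested. These gave -0.27 and -0.09 for MSX2, -0.20 and -0.16 for HBEGF, -0.07 and -0.09 for MAP1A, 0.01 and 0.06 for STC1 and 0.12 for BCL2L11. The MSX2 set at -0.27 was at 8.61, 8.62 and 8.64 in iWT and at 8.41, 8.32 and 8.32 in iKR. MSX2, a homeobox factor, was at 9.13, 9.15 and 9.205 in iWT and at 9.10, 9.09 and 8.998 in iKR. MAP1A, a microtubule-associated protein, was at 8.42, 8.59 and 8.34 in iWT and at 8.51, 8.39 and 8.56 in iKR, where the lines overlapped.

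Lists from the study's stably transfected T47D cells were also read. Of 56 tested genes that were higher with K388R than wild-type PR without ligand in those cells, 12 were higher and 20 lower here (21.4% and 35.7% against 6.7% and 5.07% of all genes), with a median of -0.06. CDH10 was on this list with its lowest difference, -5.80. The largest difference between the inducible lines was thus opposite in direction to that of the stable cells. Of 267 tested genes upregulated by R5020 with both receptors in those cells, 22 were higher and 18 lower (8.24% and 6.74%, near the shares of all genes), with a median of 0.00.

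Many called genes lay side by side on chromosome 7, a pattern counted after the values were seen. Of 483 tested genes of chromosome 7, 94 (19.5%) were lower and 35 (7.25%) higher in iKR. The 8 tested genes with no position in the annotation, UPK3B among them, are in no chromosome count. On the other 22 chromosomes, X included, the share called lower ran from 1.53% to 5.84%. Taken in the gene order of the RefSeq annotation of GRCh38.p14, the widest distance between neighbouring tested genes lay between CHCHD2 and ZNF107, across the centromere, and left 151 genes on the short arm and 332 on the long arm. On the long arm 78 genes were lower and 13 higher (23.5% lower against 5.07% of all genes), with a median of -0.09, and 28.6% of its genes had a positive difference against 46.7% of all genes. The number lower on the long arm was 43 without the AP21967 pair and 45 with the AP21967 plus R5020 pair added.

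The lower genes were spread over most of the long arm rather than in one place. In blocks of 24 neighbouring genes, each block from SLC25A40 to PTPRN2 had a negative median, between -0.16 and -0.03, while the 2 blocks from VOPP1 to PMS2P3 had medians of 0.06. The members had unlike functions. ARPC1A and ARPC1B, subunits of the Arp2/3 actin nucleator, PDAP1 and the splicing factor BUD31 were 4 tested neighbours, all lower, with differences of -0.35, -0.53, -0.68 and -0.28 (adjusted p = 0.002, 0.000301, 0.000325 and 0.00636). PDAP1 was at 11.04, 11.14 and 11.04 in iWT and at 10.20, 10.52 and 10.44 in iKR. AZGP1 and CD36 also lay on the long arm, CD36 between its tested neighbours GNAI1 (-0.21) and SEMA3C (-0.33).

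In the 2 arrays of iEV, the long arm was at the level of iKR. With the same vehicle and AP21967 arrays of each line, iKR minus iEV had a median of 0.00 over the long arm and iWT minus iEV of 0.07, against 0.00 and 0.01 over all genes (the comparisons share the iEV arrays). Thus iWT was the line above the others there.

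The short arm as a whole had 22 genes higher and 16 lower of 151, with a median of 0.00. One stretch of it, chosen here for its positive values, had the opposite sign to the long arm, while the blocks of 24 genes from MATCAP2 to MYL7 and from YKT6 to LANCL2 had 0 higher, and 5 and 3 lower. In the 48 tested genes from EIF2AK1 to CREB5, 17 were higher and 4 lower (35.4% higher against 6.7%), with a median of 0.13. Here iKR was above iEV (median 0.13) and iWT near it (0.02). Over the whole short arm, iKR and iWT were above iEV by medians of 0.11 and 0.09. An iKR level above iEV was thus not particular to the stretch, whereas iWT was nearer to iEV there than over the arm. In the AP21967 plus R5020 pair the median of this stretch was 0.02. The stretch held AHR, described above, with its tested neighbours AGR2, SNX13 and HDAC9 (0.35, 0.26 and 0.51), the glycoprotein GPNMB (0.56, adjusted p = 0.000215), the RNA-binding protein IGF2BP3 (0.36) and the glycosyltransferase C1GALT1 (0.60, adjusted p = 0.00056).

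**Figure D4:**
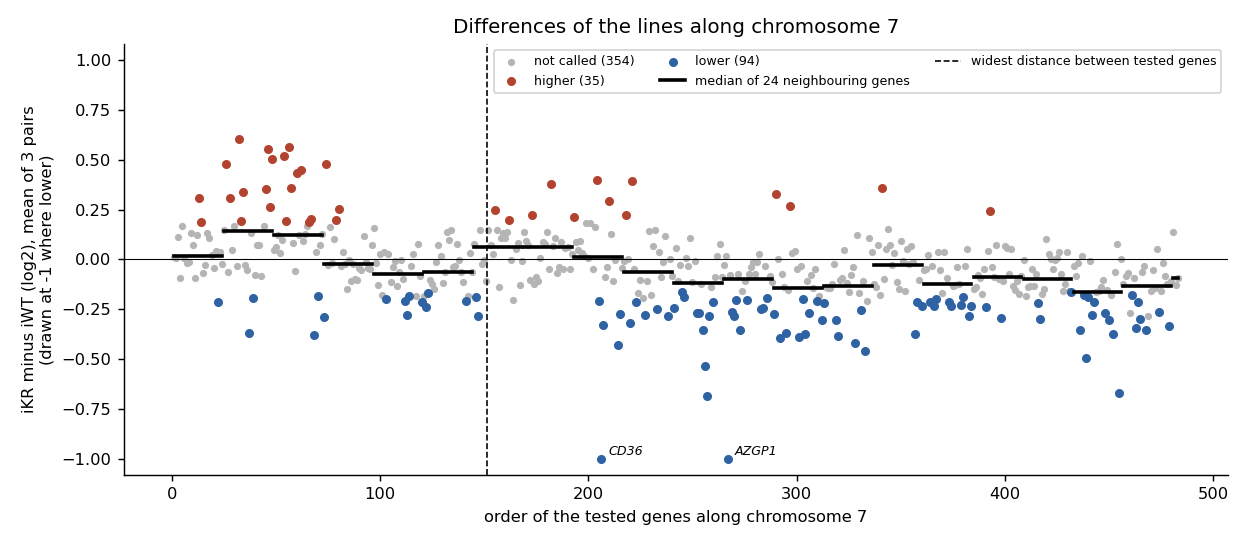
Each point is 1 of 483 tested genes in their order along chromosome 7, and the y axis is iKR minus iWT (log2, mean of 3 pairs), with CD36 and AZGP1 drawn at -1. Red and blue points are called higher (35) and lower (94), black bars are medians of 24 neighbouring genes (3 in the last) and the dashed line marks the widest distance between tested genes. Red points gather early on the left, and blue points run along most of the right side.

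Elsewhere, runs of at least 3 tested neighbours called in 1 direction were few. There were 17 in all, holding 57 genes, and 9 of them with 30 genes were on chromosome 7. On chromosome 6, RMND1, DCPH1, CCDC170 and ESR1 were all lower, with differences of -0.36, -0.39, -0.57 and -0.79. On chromosome 1, the metalloproteinase ADAM15 and the ephrins EFNA4, EFNA3 and EFNA1 were lower, with differences from -0.37 to -0.17. On chromosome 15, EDC3, CYP1A1 and CYP1A2 were higher, with differences from 0.25 to 1.59. On chromosome 3, TNFSF10, ECT2 and NLGN1 were higher, with differences from 0.42 to 0.65.

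The AP21967 plus R5020 pair, 2 arrays not used for any call, showed how far these differences carried into cells given both agents. The fitted arrays were not free of hormone, since the R5020 pair was among them. SGK1, for example, was at 9.20 with vehicle and 9.77 with R5020 in iWT, and at 8.81 and 9.22 in iKR. Of the 731 genes called higher, 584 (79.9%) were also higher in iKR in this pair, against 55.7% of all genes. Of the 553 called lower, 429 (77.6%) were lower, against 44.3%. With an adjusted p under 0.01, 88.2% of 541 genes had the same sign. The pair's difference correlated over all genes with those of the vehicle, R5020 and AP21967 pairs at r = 0.48, 0.32 and 0.37 (Spearman 0.33, 0.17 and 0.18).

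By group, 29 of the 33 mitosis genes had a positive difference in that pair (median 0.49), 28 of the 39 interferon-stimulated genes a negative one (median -0.25) and 18 of the 20 S100 and epidermal genes a positive one (median 0.27). The long arm of chromosome 7 had a median of -0.08 and 219 of 332 negative differences. The mitosis genes with negative values were CDK1 (-0.03), MAD2L1 (-0.14), CENPE (-0.06) and ECT2 (-0.05). Cyclin E2 turned furthest in the replication list, from 0.60 to -0.61.

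**Figure D5:**
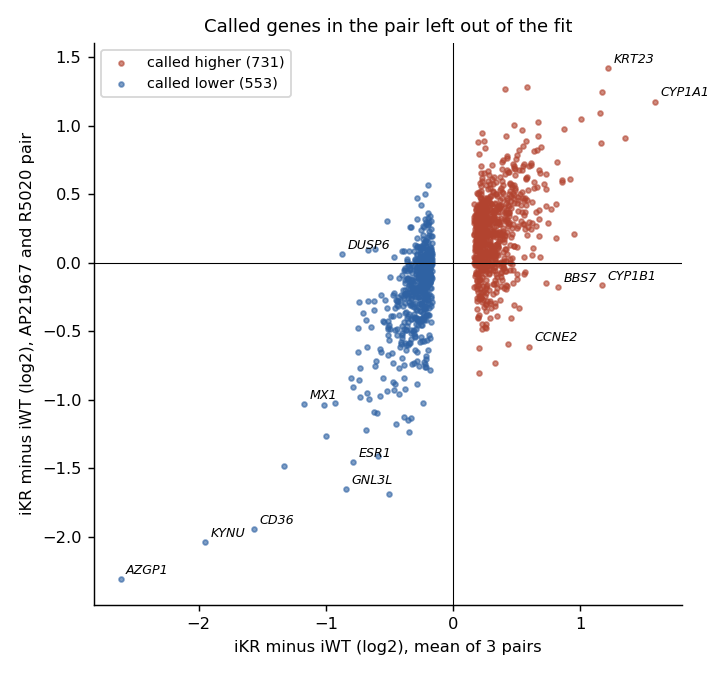
Each point is a called gene, with iKR minus iWT (log2) as the mean of 3 pairs on the x axis and in the AP21967 plus R5020 pair on the y axis (CDH10, at -5.80 and -4.92, is outside the frame). Of the red points, 584 of 731 lie above 0, and of the 553 genes called lower 429 lie below 0, CDH10 included.

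iEV gave no single reference for the differences. Among the genes higher in iKR, the iEV mean of the vehicle and AP21967 arrays was below both lines in 287, between them in 185 and above both in 259, and it was nearer to iWT in 380 and to iKR in 351. Among the genes lower in iKR, it was above both in 232, between them in 219 and below both in 102, nearer to iWT in 342 and to iKR in 211.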

How the data were processed

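RNA from 10 conditions was hybridised to Affymetrix human expression arrays, 1 array each. The authors used Robust Multi-array Average (R package affy). This method adjusts background, quantile-normalizes between arrays and summarises probes, and what they deposited are its log2 signals per probe set. Fold differences were computed here from these log2 values. The platform annotation lists 1 gene for 19070 of 22277 probe sets, several for 1043 and none for 2164. Each of 11963 genes was represented by its brightest probe set, and the 10911 genes reaching log2 6 on 1 array were tested. limma 3.58.1 in R 4.3.3 was fitted to the 6 arrays with the condition as a block (2 residual degrees of freedom, 8.17 with the prior), and a Benjamini-Hochberg adjusted p under 0.05 was called. The conditions pair the arrays by the labels of their treatments. When tested on simulated data for this comparison over 10911 genes, 200 of them changed, the fit recovered 100% of changes of 1.5 and 2 fold, with 6.10% false among the calls. The simulated noise was independent between genes and arrays, and no change was under 1.5 fold. These rates therefore do not carry over to the real calls, most of which were smaller.

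Named genes were PGR, the 15 largest differences in each direction among called genes with 1 sign in all pairs, and up to 4 called genes of each list. Genes that the study followed up or named from its earlier work, and runs of 3 or more called neighbours, were added. Other list members were named after their values were seen. The members and the lists (28 written by hand and 2 from the study's tables for stable cells) were chosen with earlier results of these data known. Promoters were RefSeq sequences of GRCh38.p14. Chromosome order came from RefSeq and no coordinates of the probe sets were used. Alternatives were an unpaired fit, 8 or 10 arrays, each pair left out, other limma priors, other filters, the mean of probe sets, no _x_at or _s_at probe sets, median centring, cyclic loess and an adjusted p of 0.01. Arrays have no read depth, and their number limits the precision. Python 3.11.15, numpy 2.4.6, pandas 2.3.3 and matplotlib 3.10.9 were used.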

Additional observations from a re-analysis of the deposited data

Results flagged for a closer look

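Among the 30 genes with the largest differences, 6 had a line difference in the AP21967 plus R5020 pair apart from that of the other 3 pairs (limma with a term for that pair on 8 arrays, adjusted over all genes, chosen after the values were seen). Over all genes 482 were called by this term. CYP1B1 was higher in iKR by 1.17 in the 3 pairs and had a difference of -0.16 in the last (gap -1.34, SE 0.14, adjusted p = 0.00626 by limma), where it was at 9.88 in iKR and 10.05 in iWT. Its 3 other probe sets gave 0.26, 0.13 and 0.30 in that pair. DUSP6 differed by -0.87 in the 3 pairs and had a difference of 0.063 in that pair (gap 0.93, SE 0.09, adjusted p = 0.00455 by limma), where iWT was at 7.93 and iKR at 7.996. Other DUSP6 probe sets gave 0.11 and -0.25 there. BBS7, of the ciliary BBSome, went from 0.83 to -0.18 (adjusted p = 0.0299 by limma). CYP4F3, a fatty acid hydroxylase, went from 0.95 to 0.21 (adjusted p = 0.0211 by limma). CDH10 went from -5.80 to -4.92 (adjusted p = 0.026 by limma). GNL3L, a nucleolar GTPase, went from -0.84 to -1.66 (adjusted p = 0.0348 by limma).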

How the results depend on the processing

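Each pair was left out in turn. This gave 439 to 685 genes higher and 315 to 461 lower in iKR (7 to 9 and 7 to 8 past 2 fold), 32 to 33 mitosis, 11 to 13 replication and 9 to 10 S100 and epidermal genes higher, 12 to 19 interferon-stimulated genes lower, and on chromosome 7, 14 to 20 short-arm genes higher and 43 to 59 long-arm genes lower. The lowest values came without the R5020 pair (higher genes, short arm) or the AP21967 pair (lower genes, long arm). With the AP21967 plus R5020 pair included, 456 genes were higher and 294 lower, with 10 replication genes higher and 45 long-arm genes lower. Leaving out probe sets marked _x_at or _s_at gave 420 genes higher and 335 lower, with 19 mitosis, 6 S100 and epidermal and 9 short-arm genes higher, and 8 interferon-stimulated and 49 long-arm genes lower. This choice both tests fewer genes and reads others by another probe set. At an adjusted p under 0.01, 341 were higher and 200 lower, with 9 replication and 14 short-arm genes higher, and 9 interferon-stimulated and 34 long-arm genes lower. An intensity trend in the prior gave 849 genes lower, the mean of probe sets gave 5 genes higher past 2 fold, and the unpaired fit gave 10 replication and 6 S100 and epidermal genes higher. The cause was not tested. The counts by group and chromosome arm under these settings were added after the values were seen.

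Of 160 called genes among those selected for naming, 83 were called under all settings that measured them, and 3 had the other sign under 1 setting, the one that leaves out _x_at and _s_at probe sets, namely BMP7 (-0.075), MAGEC2 (0.15, from -0.24) and HMGCS1 (0.035), each read there by another probe set. No fit can separate the receptor from the clone.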
